A study of Rattus norvegicus with 86 samples.

Results

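The genes described here make, cut, splice and remove RNA in the prelimbic cortex (PL) of Heterogeneous Stock (HS) rats. They were the genes of the PL expression table whose identifier the study's eQTL tables pair with a name starting with Srsf, Hnrn, Snrp, Ddx, Dhx, Rbm, Prpf, Sf3, Lsm, Cpsf, Exosc, Polr, Taf, or Med followed by a digit. This rule found 49 of the 17250 genes of the table. Names were known for 3292 genes (19.1% of the table), all because the gene had an eQTL in at least 1 of the brain regions studied, so the 49 genes are a sample of the RNA machinery and not the whole of it. No Srsf or Sf3 gene was among them. *Tafa5* entered through its first letters alone, as it encodes a secreted protein of the brain and not a TBP-associated factor, and it is kept apart below.

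RNA-Seq was performed on polyA RNA from the PL of 80 HS rats, 40 males and 40 females, 1 library per rat. HS rats are an outbred population bred from 8 inbred strains, and these were young adults that had received no behavioral test and no drug. The labels place the rats in 5 rat batches: batch 2 had 14 rats (3 females), batch 3 had 23 (13 females), batch 4 had 26 (15 females), batch 5 had 1 female, and batch 6 had 16 (8 females). The study compared rats by genotype, which was not analysed here, so the comparisons that the labels allow are between the sexes and between the rat batches.

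Values are log2 of the read count of a gene after the authors' scaling to a common upper quartile, plus 1. They are not divided by gene length, so levels are compared between rats and not between genes. The depth recovered from the scaled counts was 10174405 to 32643825 reads per library (median 18024455). Of 5 cell type markers with an identifier, the microglial *P2ry12* and the meningeal *Dcn* were higher in batches 4 and 6 than in batches 2 and 3, and the deep-layer neuron gene *Foxp2* was lower. PL was dissected as bulk tissue, in which fewer cells of a type and less RNA per cell cannot be told apart.

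The products of these genes act along the life of a transcript. RNA polymerases I and III make ribosomal and transfer RNA, while Mediator and the TBP-associated factors bring RNA polymerase II to promoters. Small nuclear ribonucleoproteins (snRNPs), LSM proteins and helicases assemble and drive the spliceosome, hnRNP and RNA binding motif proteins steer its choices, cleavage and polyadenylation factors make the 3-prime end, and the exosome degrades RNA. Neurons use alternative splicing and alternative 3-prime ends widely.

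Of the 49 genes, 48 had reads in each of the 80 rats (98.0%, against 84.2% of all genes). The exception was *Ddx3y*, named for the Y-linked copy of a translation helicase, which was at 0 in 36 rats and reached at most 10 scaled reads. Its males ran from 0 through a median of 1.00 to 3.46, and its females from 0 through a median of 0 to 3.32. Females and males therefore overlapped over nearly the whole range, which is not the pattern of a gene carried by males alone, and the name and the values of this identifier do not match. *Ddx3x*, its X-linked partner, had no identifier paired with its name.

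The RNA genes varied little from rat to rat. After sex and batch were taken out, the median SD of the 49 genes was 0.170 on the log2 scale, against 0.227 over all genes. Among genes with a mean of at least 5, the medians were closer, at 0.164 for 45 of the 49 genes and 0.183 for 13025 genes. The steadiest was *Ddx23*, the helicase of the U4/U6.U5 particle, with an SD of 0.0785 and a range from 1687 to 2250 scaled reads. *Lsm14b*, a translational repressor of RNA granules, and *Cpsf3*, the endonuclease that cuts pre-mRNA at the polyadenylation site, followed at 0.0834 and 0.0878.

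At the other end, *Ddx3y*, *Ddx58*, *Rbms3* and *Rbm20* had SDs of 0.941, 0.538, 0.479 and 0.465, and all 4 rested on few reads. *Ddx58*, the viral RNA sensor RIG-I, ran from 10 through a median of 28 to 75 scaled reads. *Rbm20*, a splicing regulator known for titin in the heart, ran from 10 through 31 to 60. *Rbms3*, which binds single-stranded nucleic acid, ran from 11 through 24 to 53. The part of read counting in their spread was not tested.

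*Polr3k* and *Prpf39* varied widely on many more reads. *Polr3k*, a small subunit of RNA polymerase III, had a residual SD of 0.370 and ran from 723 through 1227 to 1919 scaled reads. *Prpf39*, a factor of the U1 snRNP in alternative splicing, had a residual SD of 0.358 and ran from 222 through 521 to 1042. In both genes the highest rat had more than 2 times the reads of the lowest. Other members shared this, such as *Cpsf6*, which ran from 10.15 to 11.58 on the log2 scale. These ranges include differences between batches, which the residual SD leaves out.

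*Snrpn*, the imprinted neuronal Sm protein that stands in for SmB, was at 13.60 ± 0.21 (SD, n = 80). 1 rat stood apart. A female of batch 3 was at 12.33, against 13.26 in the next lowest rat, and held 0.411 times the reads of the median rat. Without that rat the SD was 0.157 in place of 0.21. That rat was the lowest of all 80 for 2 of the 49 genes, *Snrpn* included, and the highest for none.

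No member split the rats into separate groups. A model with 2 groups was called over a model with 1 where it lowered the Bayesian information criterion by over 10, the group means lay more than 4 SDs and 1 log2 unit apart, and at least 10% of rats were in the smaller group. It was called for 0 of the 49 genes, against 2.46% of all genes. At 3 SDs and 0.5 log2 units it was called for *Med12l* and *Cpsf6*, against 4.55% of all genes, with 19 of 80 rats in the low group of each. With batch taken out as well, the first rule (4 SDs and 1 log2 unit) called 0 of the 49 genes, against 266 of all 17250 genes.

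A set of 7 of the genes was picked for their correlations. After sex and batch were taken out, the 1176 pairs of genes had a median Pearson correlation of 0.012 over the 80 rats. Of these, 39 pairs were above 0.5 and 22 were below -0.5. These correlations are descriptions, because the rats share scaling, depth and dissection. Taking out batch removes its mean alone, so differences between sets of rats within a batch remain. The highest was between *Cpsf6* and *Dhx36* (r = 0.867), followed by *Cpsf6* and *Hnrnph1* (0.840), *Cpsf6* and *Polr3f* (0.783), *Dhx36* and *Hnrnph1* (0.776), and *Hnrnph1* and *Prpf39* (0.767).

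*Cpsf6* encodes the larger subunit of cleavage factor Im, which sets the choice among polyadenylation sites. *Dhx36* encodes a helicase that unwinds G-quadruplexes, and *Hnrnph1* an hnRNP that binds runs of G and steers splicing. *Polr3f* encodes a subunit of RNA polymerase III that acts in initiation. On the other side stood *Rbm42*, an RNA binding motif protein, and *Med25*, the Mediator subunit that meets activators. These 2 genes varied together (r = 0.763) and, over the 80 rats, in opposition to the first 5. The lowest correlations of all pairs were between *Med25* and *Hnrnph1* (-0.698), *Rbm42* and *Cpsf6* (-0.695), and *Rbm42* and *Hnrnph1* (-0.675).

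**Figure D1:**
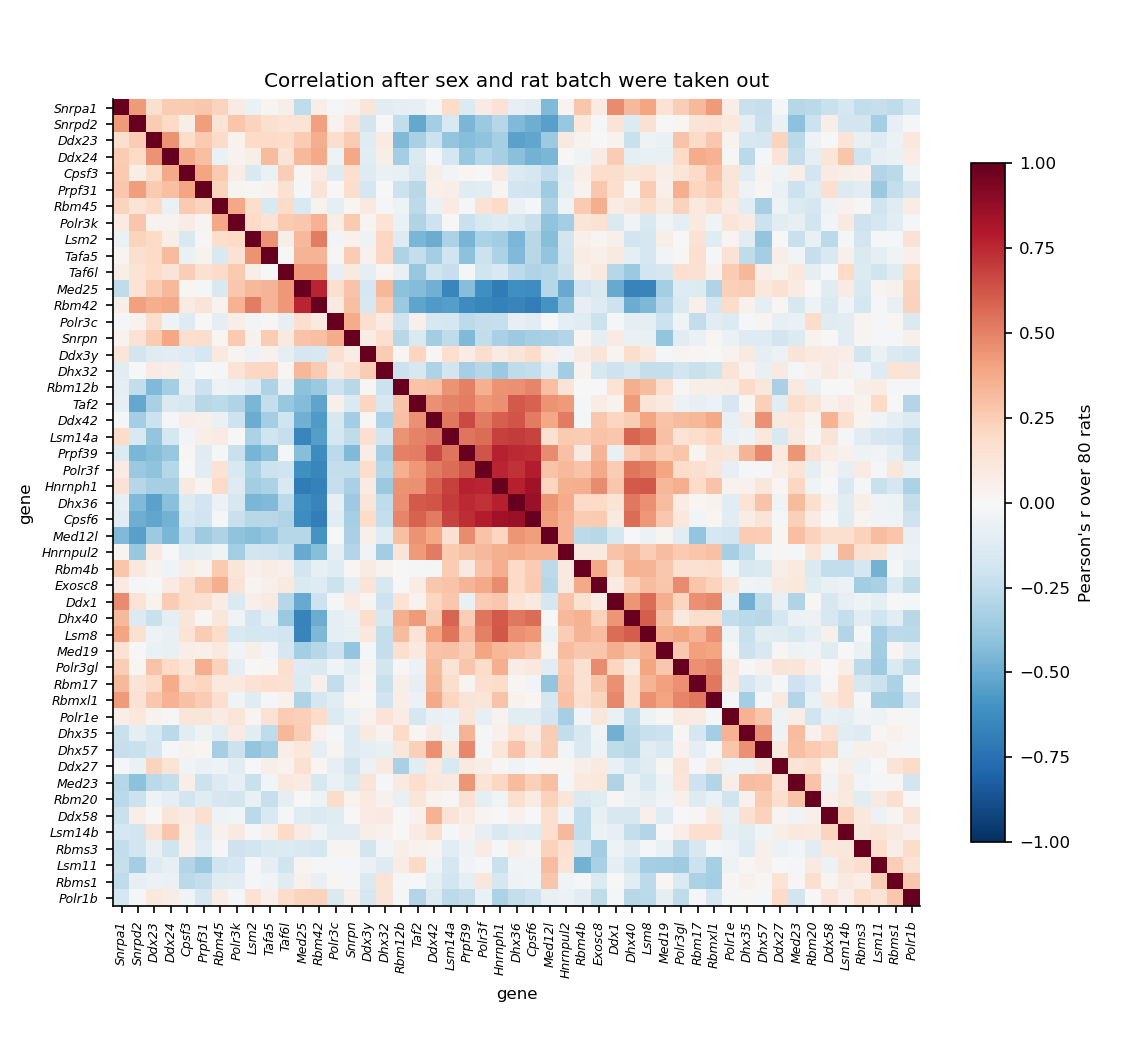
Pearson correlation between each pair of the 49 genes over 80 rats, after sex and rat batch were taken out of the log2 values; red is positive, blue negative, and the genes are ordered by likeness. A red block holds *Cpsf6*, *Dhx36*, *Hnrnph1*, *Polr3f* and *Prpf39*, with *Lsm14a*, *Ddx42* and *Taf2* at its paler edge, and blue cells join it to *Rbm42* and *Med25*.

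The pair *Cpsf6* and *Dhx36* held within each batch, with r = 0.839, 0.933, 0.810 and 0.85 in batches 2, 3, 4 and 6. *Cpsf6* and *Rbm42* ran in opposite directions in all 4, at -0.642, -0.686, -0.773 and -0.654. The 14 rats of batch 2 departed most from the pattern. There the r of *Hnrnph1* was 0.292 with *Cpsf6*, against 0.876, 0.891 and 0.915 in batches 3, 4 and 6, and 0.055 with *Dhx36*, while it was 0.599 with *Prpf39* and 0.452 with *Polr3f*. Its r with *Rbm42* and *Med25* in batch 2 was positive, at 0.262 and 0.396. *Prpf39* in batch 2 had an r of -0.219 with *Rbm42* and 0.053 with *Med25*.

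**Figure D2:**
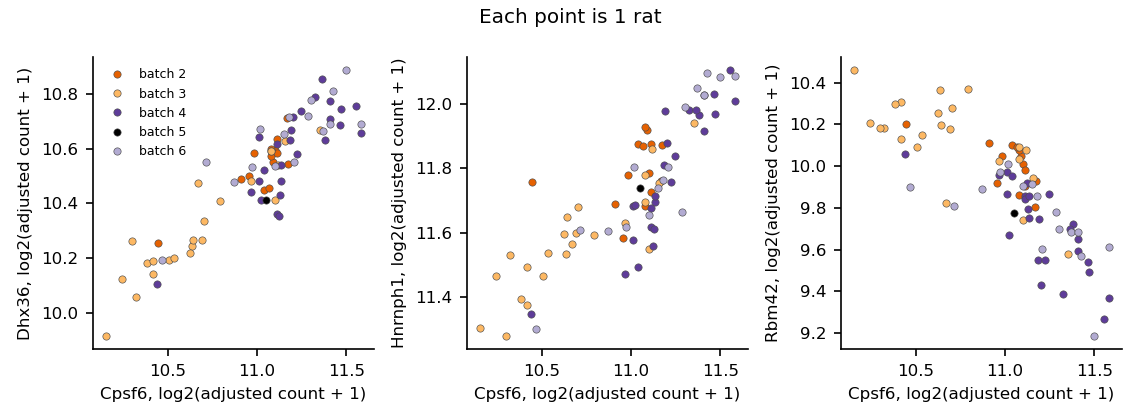
Log2 values of *Dhx36*, *Hnrnph1* and *Rbm42* against those of *Cpsf6*; each point is 1 of 80 rats, colored by rat batch. *Dhx36* and *Hnrnph1* climb with *Cpsf6* and *Rbm42* descends, over the 80 rats; within batch 2 the r of *Cpsf6* and *Hnrnph1* was only 0.292.

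Recovered depth moved little with these genes: over the genes its residual correlation furthest from 0 was 0.233, for *Dhx40*. For the 5 cell type markers, the value furthest from 0 was -0.361, between *Dcn* and *Med25*. The value of 5.8S ribosomal RNA, a part of the large ribosomal subunit without a polyA tail, moved more with the set. After sex and batch were taken out, its r was -0.585 with *Cpsf6*, -0.533 with *Dhx36*, -0.456 with *Polr3f*, -0.413 with *Hnrnph1*, -0.413 with *Prpf39*, 0.520 with *Rbm42* and 0.368 with *Med25*. Genes outside the set moved with it as well, at 0.490 for *Ddx24*, -0.447 for *Med12l*, -0.391 for *Taf2* and 0.385 for *Ddx23*. Its median r over the members was -0.012, with values of both signs. The part of 5.8S ribosomal RNA content in these correlations was not tested.

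The promoters of the genes in this set are printed so that their make-up can be compared. RefSeq promoter sequences (build GRCr8, a later build than the Rnor_6.0 of the study) were matched by symbol for 41 of the 48 genes looked up, *Ddx3y* being left out. In the 250 bases before the start, none of the 41 held TATAAA on either strand, against 12.1% of 21851 protein-coding promoters. GGGCGG, the GC box, was in 22 of 41 (53.7%, against 38.9%), CCAAT in 18 (43.9%, against 35%), CCGGAAG, an ETS site, in 9 (22%, against 9.01%), GCGCA followed by any base and GCGC, an NRF1 site, in 7 (17.1%, against 5.07%), and AAGATGGC, a YY1 site, in 1 (2.44%, against 1.64%). The median promoter of the 41 held 18 CpG dinucleotides, against 8 over all promoters. The 21851 promoters were not limited to genes with reads in PL, as the 41 were. Whether these contrasts hold against other genes expressed in PL was not tested. Apart from CG, which lies within 3 of them, no motif searched contains another. Matches on both strands were counted, and a match is a run of letters and not a shown binding site.

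The last 100 bases before the start are given for all 7 genes of the set, read toward the gene, with matches to these motifs in capitals. No motif is present in all 7. *Cpsf6* (chr7:54873999-54874098, minus strand) holds 2 GC boxes. *Dhx36* (chr2:149044192-149044291, minus strand) holds a GC box and an ETS site. *Hnrnph1* (chr10:35194533-35194632, plus strand) and *Prpf39* (chr6:88825140-88825239, plus strand) each hold a GC box and an NRF1 site. *Polr3f* (chr3:152361698-152361797, plus strand) holds none of the motifs in this stretch. *Rbm42* (chr1:95035981-95036080, minus strand) holds a CCAAT box and *Med25* (chr1:104512070-104512169, minus strand) an NRF1 site.
Cpsf6: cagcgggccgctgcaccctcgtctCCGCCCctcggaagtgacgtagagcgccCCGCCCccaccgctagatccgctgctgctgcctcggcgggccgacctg
Dhx36: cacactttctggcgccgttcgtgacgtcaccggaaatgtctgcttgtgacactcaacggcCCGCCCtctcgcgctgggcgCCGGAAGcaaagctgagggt
Hnrnph1: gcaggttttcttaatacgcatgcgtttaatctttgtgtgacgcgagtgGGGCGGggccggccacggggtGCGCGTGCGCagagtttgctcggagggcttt
Prpf39: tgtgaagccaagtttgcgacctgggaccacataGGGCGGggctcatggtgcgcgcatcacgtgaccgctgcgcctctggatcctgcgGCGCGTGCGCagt
Polr3f: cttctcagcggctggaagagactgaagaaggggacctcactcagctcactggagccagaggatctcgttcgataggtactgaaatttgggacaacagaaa
Rbm42: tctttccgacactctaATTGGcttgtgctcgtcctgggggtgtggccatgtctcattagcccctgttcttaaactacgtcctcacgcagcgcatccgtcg
Med25: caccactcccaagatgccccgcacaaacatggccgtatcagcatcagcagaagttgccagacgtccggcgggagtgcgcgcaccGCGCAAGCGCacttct

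Rat batches were compared next, since batch is the label on which the 80 libraries differed most. Over the batches, 27 of the 49 genes differed (limma moderated F-test with sex as covariate, Benjamini-Hochberg adjusted p under 0.05), which is 55.1% against 59.4% of all 17250 genes. Most of the difference lay between batches 2 and 3 on one side (37 rats) and batches 4 and 6 on the other (42 rats). In that contrast 26 of the 49 genes (53.1%) passed the same threshold, against 55.4% of all genes. Of these, 13 were higher in batches 4 and 6 (26.5%, against 28.8% of all genes) and 13 were lower (26.5%, against 26.6%). The shares of the RNA genes were thus near the background, and the median difference over the 49 was -0.0099 on the log2 scale against 0.0138 over all genes. Batch explained a median of 18.7% of the variance of a member, against 17.2% over all genes.

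The 26 genes had the same sign of difference in males and in females. Batch 4 against 3 and batch 6 against 2 gave the same sign for 25 of the 26, the exception being *Hnrnph1*. The difference between the sides is the mean of these 2, so for genes called on it such agreement is partly built in. The 2 sexes likewise make up the rats of the call. Some values were near 0, as for batch 4 against 3 in *Ddx1* (-0.0093) and *Rbm20* (0.024). Of the 26 genes called between the sides, 19 passed in batch 4 against 3 and 15 in batch 6 against 2. Batch 4 against 3 alone passed for 26 of the 49 genes (51.7% of all genes) and batch 6 against 2 alone for 15 (38.3%). Within a side the batches differed for fewer genes: batch 3 against 2 for 8 (5.70% of all genes) and batch 6 against 4 for 4 (6.23%). For no member, and for no gene of the table, did the values of the 37 and the 42 rats fail to overlap. In the order of the deposited values the rats of batches 2 and 3 come first, apart from a few batch 3 rats that stand among those of batches 4, 5 and 6. In a male among these few, *Cpsf6*, *Lsm2* and *Rbm42* were at 11.35, 7.02 and 9.58. In the other male they were at 11.10, 7.37 and 9.74, and in the female at 10.97, 7.52 and 10.03. The part of this order was not tested. What else differed between the rat batches is not stated in the labels, so rat origin and handling cannot be told apart.

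**Figure D3:**
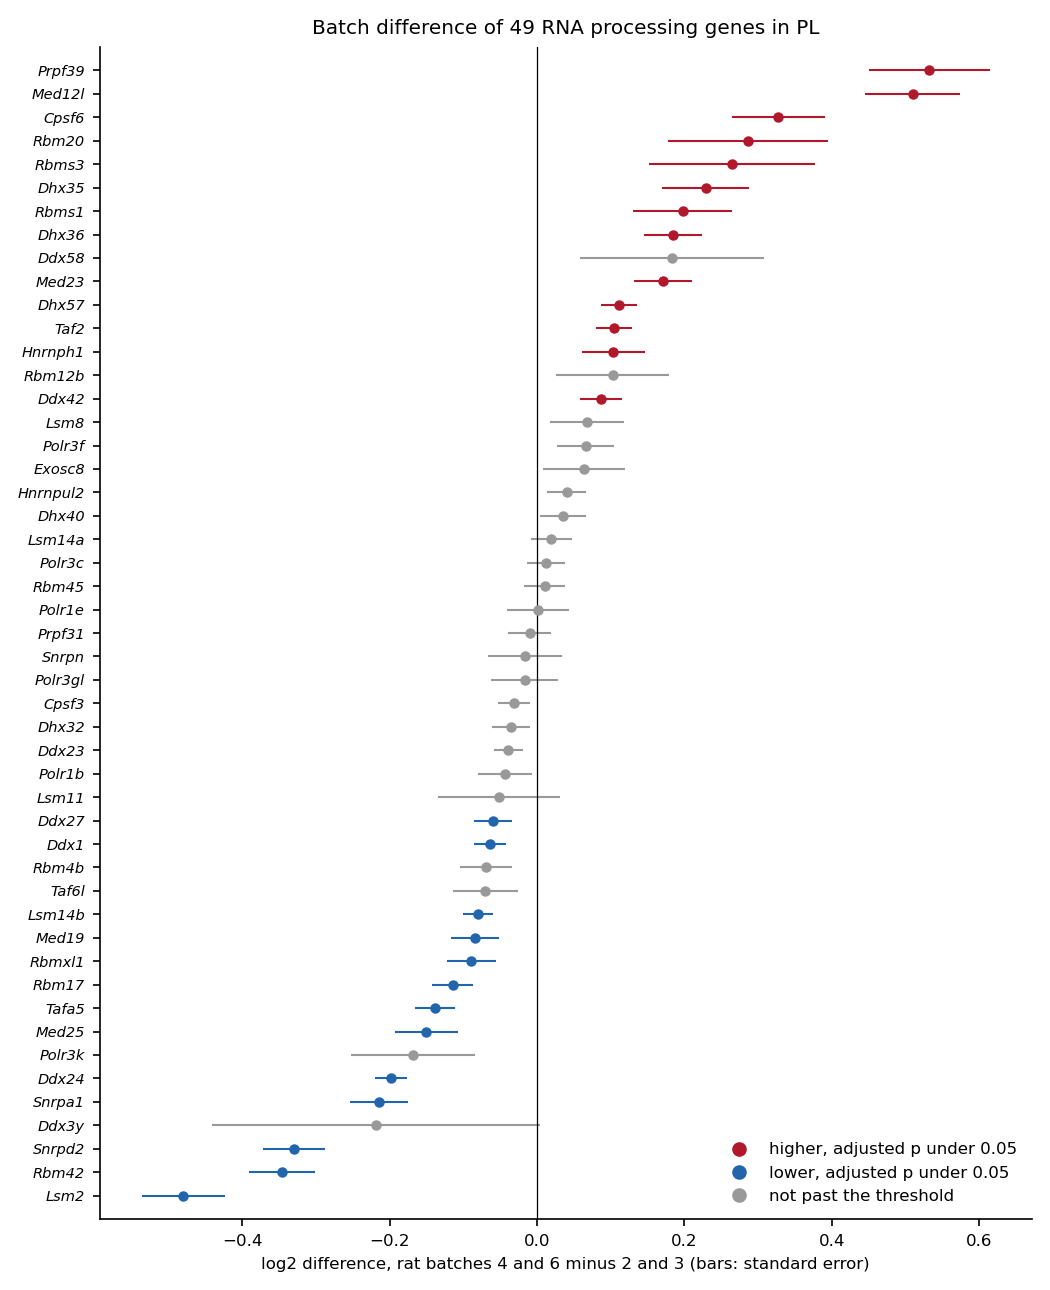
Log2 difference of batches 4 and 6 minus batches 2 and 3 for each of the 49 genes, with its standard error from limma; red and blue genes passed an adjusted p of 0.05. Differences run from -0.48 in *Lsm2* to 0.53 in *Prpf39*, with 13 genes passing on either side of 0.

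Of 3 snRNP genes and 5 LSM genes, 4 were lower in batches 4 and 6, 0 were higher and 4 did not pass, where 26.6% of all genes were lower and 28.8% higher. No test of the group was run. *Lsm2* (ENSRNOG00000048725), a subunit of the ring that holds U6 RNA in the nucleus and of the ring that starts mRNA decay in the cytoplasm, ran from 7.02 through a median of 7.50 to 7.85 in batches 2 and 3. In batches 4 and 6 it ran from 6.41 through 6.99 to 7.47. The ranges overlapped, but all 42 rats of batches 4 and 6 were below the median of the others. The difference was -0.48 ± 0.06 (log2, SE), so the scaled count fell by 28.3% (limma, adjusted p = 1.44e-11).

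*Snrpd2* (ENSRNOG00000015844), an Sm protein of the core of most spliceosomal snRNPs, ran from 9.08 through 9.67 to 10.05 in batches 2 and 3 and from 8.93 through 9.32 to 9.64 in batches 4 and 6. All 42 rats of the latter were below the median of the former. The difference was -0.33 ± 0.04 (limma, adjusted p = 2.46e-10). *Snrpa1*, a protein of the U2 snRNP, ran from 7.95 through 8.38 to 8.63 and from 7.71 through 8.15 to 8.51, and 39 of the 42 rats were below the median of batches 2 and 3. Its difference was -0.21 ± 0.04 (limma, adjusted p = 2.71e-06).

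*Lsm14b* fell by 0.08 ± 0.02 (limma, adjusted p = 0.000659). The others did not pass. *Snrpn* differed by -0.02 ± 0.05, *Lsm11*, a protein of the U7 snRNP of histone mRNA, by -0.05 ± 0.08, *Lsm14a*, the sister of *Lsm14b*, by 0.02 ± 0.03, and *Lsm8*, found in the nuclear ring alone, by 0.07 ± 0.05. Subunits of the same LSM ring therefore differed in value, *Lsm2* at -0.48 and *Lsm8* at 0.07, a gap that was not itself tested.

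*Prpf39* (ENSRNOG00000004521) had the most positive difference of the 49 genes. It ran from 7.8 through 8.71 to 9.31 in batches 2 and 3 and from 8.41 through 9.29 to 10.03 in batches 4 and 6. Of the 42 rats of batches 4 and 6, 37 were above the median of the others. The difference was 0.53 ± 0.08, a rise of 44.6% (limma, adjusted p = 4.62e-08). Batch 3 was also lower than batch 2 by 0.46 ± 0.12 (limma, adjusted p = 0.0159), with means of 8.53 ± 0.35 and 8.99 ± 0.25 (SD). *Prpf31*, which holds the U4/U6.U5 particle together, differed by -0.01 ± 0.03 and did not pass.

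**Figure D4:**
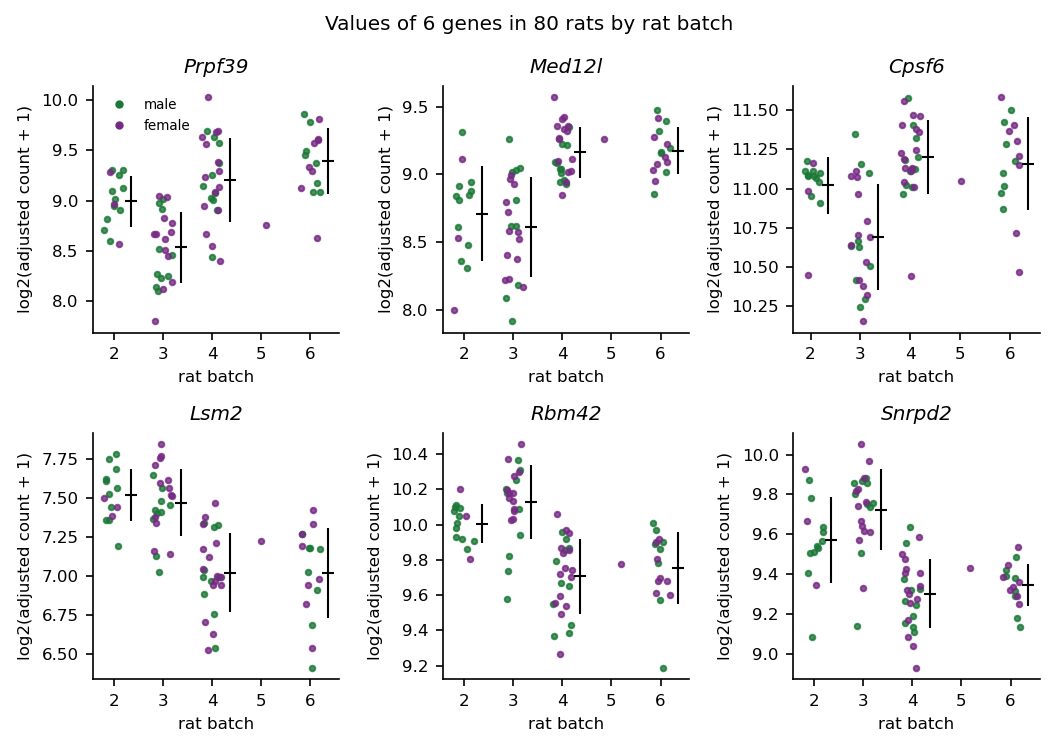
Log2 values by rat batch for *Prpf39*, *Med12l*, *Cpsf6*, *Lsm2*, *Rbm42* and *Snrpd2*, 1 point per rat, males in green and females in purple; black marks give the mean and SD of a batch. Batches 2 and 3 sit apart from 4 and 6 in median, while single rats of the 2 sides overlap in each gene. In *Cpsf6*, batch 6 was only 0.14 above batch 2, which did not pass (limma, adjusted p = 0.259).

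RNA binding motif genes changed in both directions. Of 9, 3 were higher, 3 were lower and 3 did not pass, against 28.8% higher and 26.6% lower over all genes. *Rbm42* (ENSRNOG00000024278) ran from 9.58 through 10.09 to 10.46 in batches 2 and 3 and from 9.19 through 9.75 to 10.06 in batches 4 and 6, with all 42 of the latter below the median of the former. Its difference was -0.35 ± 0.04 (limma, adjusted p = 4.12e-10). *Rbm17*, which acts in the choice of 3-prime splice sites, and *Rbmxl1*, a retrogene of *Rbmx*, fell by 0.11 ± 0.03 and 0.09 ± 0.03 (limma, adjusted p = 0.000319 and 0.0207).

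The 3 that were higher had few reads, with mean log2 values between 4.64 and 6.64. *Rbm20* ran from 3.46 through 4.75 to 5.91 in batches 2 and 3 and from 4.00 through 5.02 to 5.93 in batches 4 and 6, a difference of 0.29 ± 0.11 (limma, adjusted p = 0.0206). It was 0.55 for batch 6 against 2 (limma, adjusted p = 0.00802) and only 0.02 for batch 4 against 3 (limma, adjusted p = 0.898). *Rbms3* ran from 3.58 through 4.52 to 5.75 and from 3.58 through 4.75 to 5.73, a difference of 0.26 ± 0.11 (limma, adjusted p = 0.0392). The ranges of both nearly coincided, and the fold is understated at such counts by the 1 added before the log. *Rbms1*, the sister of *Rbms3*, differed by 0.20 ± 0.07 (limma, adjusted p = 0.00886). *Rbm4b*, *Rbm45* and *Rbm12b* differed by -0.07 ± 0.04, 0.01 ± 0.03 and 0.10 ± 0.08 and did not pass. Reads of *Rbmxl1* and *Rbm4b* can be shared with the close copies *Rbmx* and *Rbm4*, so their values are uncertain.

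Helicases of the DEAD and DEAH families changed in both directions. Of 5 DEAH-box genes 3 were higher, 0 were lower and 2 did not pass, and of 7 DEAD-box genes 1 was higher, 3 were lower and 3 did not pass, against 28.8% higher and 26.6% lower over all genes. These counts are small, and the families were not tested against the rest. *Ddx24* (ENSRNOG00000009166), a nucleolar helicase, had the smallest p over batches of all 49 genes. It ran from 11.06 through 11.34 to 11.53 in batches 2 and 3 and from 10.94 through 11.17 to 11.28 in batches 4 and 6. All 42 rats were below the median of the others although the difference was only -0.20 ± 0.02 (limma, adjusted p = 8.78e-13), because its residual SD was 0.0885.

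*Ddx1*, a helicase of the transfer RNA ligase complex, and *Ddx27*, which acts on ribosomal RNA, fell by 0.06 ± 0.02 and 0.06 ± 0.03 (limma, adjusted p = 0.00889 and 0.0447). For *Ddx1* the difference was -0.12 for batch 6 against 2 (limma, adjusted p = 0.00379) and only -0.0093 for batch 4 against 3 (limma, adjusted p = 0.793). *Ddx42*, a helicase bound to the SF3B part of the U2 snRNP, rose by 0.09 ± 0.03 (limma, adjusted p = 0.00675). *Ddx23*, *Ddx58* and *Ddx3y* differed by -0.04 ± 0.02, 0.18 ± 0.13 and -0.22 ± 0.22 and did not pass. *Ddx23* did differ over the batches (limma, adjusted p = 0.0013), with batch 3 above batch 2 by 0.10 ± 0.03 (limma, adjusted p = 0.0258).

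*Dhx36* (ENSRNOG00000014599) ran from 9.92 through 10.46 to 10.71 in batches 2 and 3 and from 10.10 through 10.65 to 10.89 in batches 4 and 6, with 35 of the 42 rats above the median of the others. The difference was 0.19 ± 0.04 (limma, adjusted p = 3.73e-05). It was 0.27 for batch 4 against 3 (limma, adjusted p = 1.93e-06) but 0.10 for batch 6 against 2, which did not pass (limma, adjusted p = 0.194). *Dhx35*, a helicase found in the spliceosome, rose by 0.23 ± 0.06 (limma, adjusted p = 0.000641). This came mostly from batch 6, whose mean of 9.16 ± 0.24 (SD) was above batch 4 by 0.31 ± 0.08 (limma, adjusted p = 0.00963). *Dhx57* ran from 10.06 through 10.26 to 10.57 and from 10.02 through 10.37 to 10.63, a difference of 0.11 ± 0.02 (limma, adjusted p = 8.65e-05). It too was higher in batch 6 than in batch 4, by 0.11 ± 0.03 (limma, adjusted p = 0.0293). *Dhx32* and *Dhx40* differed by -0.03 ± 0.03 and 0.04 ± 0.03 and did not pass.

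In 3-prime end formation 1 of 2 genes passed, against 55.4% of all genes. *Cpsf6* (ENSRNOG00000005927) ran from 10.15 through 10.96 to 11.35 in batches 2 and 3 and from 10.44 through 11.19 to 11.58 in batches 4 and 6, with 38 of the 42 rats above the median of the others. The difference was 0.33 ± 0.06, a rise of 25.5% (limma, adjusted p = 6.43e-06). It was 0.51 for batch 4 against 3 (limma, adjusted p = 4.14e-08) but 0.14 for batch 6 against 2, which did not pass (limma, adjusted p = 0.259). Batch 3 was below batch 2 by 0.32 ± 0.09 (limma, adjusted p = 0.0276), with means of 10.69 ± 0.34 and 11.02 ± 0.18 (SD). Batch 3 was not low as a whole, as its rats ran from 10.15 to 11.35 and some were at the level of batch 2. A female of batch 2 was also low, at 10.45. In the order of the deposited values, this female came directly before a run of batch 3 rats at 10.15 to 10.70. The rats of batches 2 and 3 ahead of this run were at 10.67 to 11.17. What sets the run apart is not given in the labels and was not tested. *Cpsf3* differed by -0.03 ± 0.02 and the exosome ring subunit *Exosc8* by 0.06 ± 0.06, and neither passed.

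Of the 2 hnRNP genes, *Hnrnph1* was higher by 0.10 ± 0.04 (limma, adjusted p = 0.0342). Its batch means were 11.79 ± 0.10, 11.58 ± 0.16, 11.78 ± 0.21 and 11.81 ± 0.23 (SD) in batches 2, 3, 4 and 6. By mean, batch 3 was thus the low batch, and batch 2 was level with batches 4 and 6. *Hnrnpul2*, a protein of the DNA damage response, differed by 0.04 ± 0.03 and did not pass, although it was lower in batch 6 than in batch 4 by 0.11 ± 0.04 (limma, adjusted p = 0.0379). Reads of *Hnrnph1* can be shared with the close copy *Hnrnph2*.

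All 4 Mediator genes passed, 2 in each direction, where 55.4% of all genes passed. *Med12l* (ENSRNOG00000010680), a form of the Med12 subunit of the kinase module, ran from 7.91 through 8.61 to 9.32 in batches 2 and 3 and from 8.85 through 9.14 to 9.57 in batches 4 and 6. All 42 rats of the latter were above the median of the former. The difference was 0.51 ± 0.06, a rise of 42.4% (limma, adjusted p = 2.21e-10). The SDs were 0.35 and 0.37 in batches 2 and 3 and 0.19 and 0.17 in batches 4 and 6. Low rats were thus found in both of the first 2 batches.

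*Med23*, a tail subunit, ran from 8.77 through 9.02 to 9.43 and from 8.73 through 9.23 to 9.62, a difference of 0.17 ± 0.04 (limma, adjusted p = 0.000151). It was higher in batch 6 than in batch 4 by 0.22 ± 0.05 (limma, adjusted p = 0.00573). *Med25* fell by 0.15 ± 0.04 (limma, adjusted p = 0.00183). *Med19* fell by 0.08 ± 0.03 (limma, adjusted p = 0.0217), with batch 2 at 8.66 ± 0.11 (SD) and the other 3 batches between 8.49 and 8.50.

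Of the TBP-associated factors, *Taf2*, a promoter-binding subunit of TFIID, rose by 0.10 ± 0.02 (limma, adjusted p = 0.000203). *Taf6l*, a subunit of histone acetyltransferase complexes, differed by -0.07 ± 0.04 and did not pass. *Tafa5*, in by name only, fell by 0.14 ± 0.03 (limma, adjusted p = 1.09e-05).

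None of the 6 RNA polymerase I and III genes passed between the sides, where 55.4% of all genes did. *Polr1b* and *Polr1e*, of RNA polymerase I, differed by -0.04 ± 0.04 and 0.00 ± 0.04. *Polr3c*, *Polr3f*, *Polr3gl* and *Polr3k*, of RNA polymerase III, differed by 0.01 ± 0.03, 0.07 ± 0.04, -0.02 ± 0.05 and -0.17 ± 0.08. *Polr3f* alone differed over the batches (limma, adjusted p = 2.04e-05). It ran from 9.17 through 9.40 to 9.56 in batch 2 and from 8.77 through 9.06 to 9.44 in batch 3, a difference of -0.29 ± 0.06 (limma, adjusted p = 0.00196). Batches 4 and 6 lay between them, at means of 9.29 and 9.30, so its lowest batch was the same as for *Cpsf6*, *Dhx36*, *Hnrnph1* and *Prpf39*. *Polr3f* was picked with these genes for its correlations over the same rats, so this likeness is not a separate result.

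The 2 sides also differed in 5.8S ribosomal RNA, whose log2 values were 9.55 ± 1.01, 9.04 ± 3.27, 2.52 ± 0.90 and 2.98 ± 1.05 (SD) in batches 2, 3, 4 and 6. Batch explained 75.0% of its variance. In batch 3, where it ran from 1.58 through 9.27 to 13.04, its r over the 23 rats was -0.654 with *Cpsf6*, -0.617 with *Dhx36*, -0.543 with *Med12l*, -0.480 with *Prpf39*, 0.70 with *Rbm42*, 0.412 with *Lsm2* and 0.287 with *Snrpd2*. With the 5.8S value as a covariate, an alternative added after the data were seen, 0 of the 49 genes passed between the sides (limma, 9 at an unadjusted p under 0.05), against 1.09% of all genes. Apart from 3 rats of batch 3, which lay under the highest value of batches 4 and 6, the 2 sides did not overlap in 5.8S content. The part of batch and that of 5.8S content in the differences between the sides were therefore not told apart.

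Cell type markers moved as well. Between the sides *P2ry12* differed by 0.27 ± 0.06, *Dcn* by 0.26 ± 0.08 and *Foxp2* by -0.30 ± 0.08 (limma, adjusted p = 0.000162, 0.00641 and 0.000539). Blood *Hbb* and astrocytic *Aldh1l1* differed by -0.34 ± 0.17 and -0.08 ± 0.05 and did not pass. None of the 5 was at 0 in a group. With the 5 as covariates, also added after the data were seen, 17 of the 49 genes passed, 9 higher and 8 lower, against 42.5% of all genes.

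Other genes of the same machinery were taken from a list of 73, of which 18 had an identifier. Over the batches 13 of the 18 differed, against 59.4% of all genes. Between the sides 8 were higher, 3 were lower and 7 did not pass, against 28.8% higher and 26.6% lower over all genes, at a median difference of 0.09 against 0.01 over all genes. *Celf1*, which binds GU-rich RNA in splicing and decay, differed by 0.47 ± 0.05, and *Dis3*, the catalytic subunit of the exosome, by 0.43 ± 0.05 (limma, adjusted p = 1.40e-11 and 2.21e-10). *Dis3* and *Exosc8* of the exosome thus differed in value, at 0.43 and 0.06, which was not itself tested. *Supt20h*, of the SAGA coactivator, rose by 0.32 ± 0.04 and *Gtf3c2*, of the RNA polymerase III factor TFIIIC, by 0.21 ± 0.04 (limma, adjusted p = 6.55e-10 and 7.06e-07). *Cdk9*, the kinase that releases paused RNA polymerase II, fell by 0.19 ± 0.03 and *Rnps1*, of the exon junction complex, by 0.12 ± 0.02 (limma, adjusted p = 3.12e-06 and 6.15e-07).

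Males and females were compared with batch as a factor. No member differed between the sexes (0 of 49, limma, Benjamini-Hochberg adjusted p under 0.05), against 0.365% of all genes (0.29% higher in males and 0.0754% lower). At an unadjusted p under 0.05 there were 2, against 7.82% of all genes, and the smallest adjusted p was 0.55. Male and female estimates differed by less than 0.1 on the log2 scale for 45 of the 49 genes. The other 4 were *Ddx3y*, *Ddx58* (0.20 ± 0.12), *Rbms3* and *Rbm20* (-0.16 ± 0.11), the genes with the fewest reads.

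The 2 genes with an unadjusted p under 0.05 were *Rbm4b* and *Ddx3y*. *Rbm4b*, a splicing regulator, ran from 7.86 through a median of 8.13 to 8.46 in 40 males and from 7.89 through 8.21 to 8.51 in 40 females. The ranges nearly coincided, and the difference, male minus female, was -0.08 ± 0.04 (limma, adjusted p = 0.55). It was -0.03, -0.08, -0.06 and -0.14 in batches 2, 3, 4 and 6. *Ddx3y* differed by 0.49 ± 0.22 (limma, adjusted p = 0.564), at -0.14, 0.75, 0.37 and 0.70 in the same batches, on few reads. None of the 18 other genes of the machinery passed either.

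**Figure D5:**
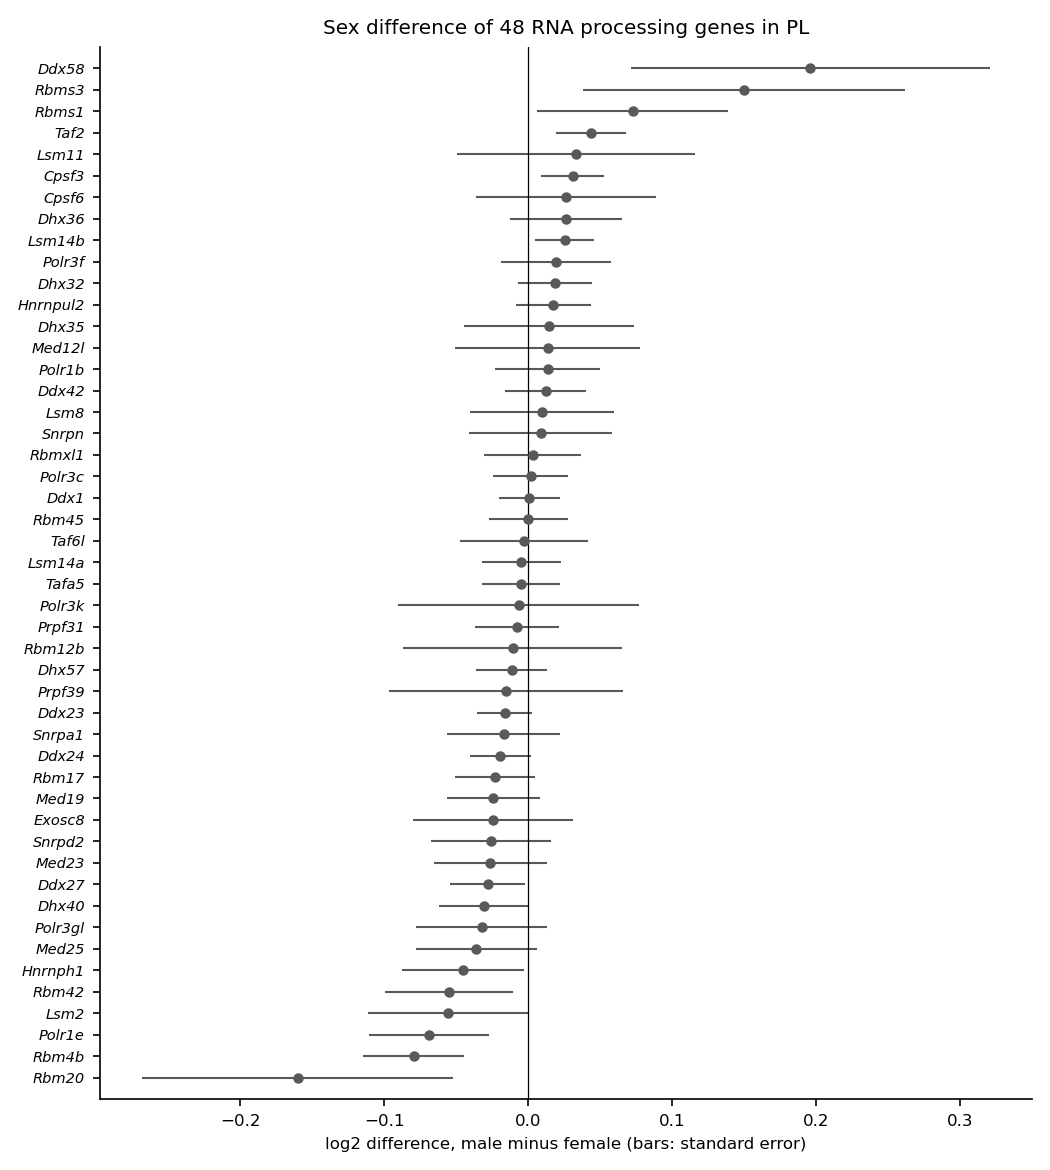
Log2 difference, male minus female, for 48 of the 49 genes, with its standard error from limma; *Ddx3y*, at 0.49 and few reads, is left out. The differences lie on both sides of 0, and none passed an adjusted p of 0.05.

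The sex difference was also tested for a change between batches 2, 3, 4 and 6. The interaction passed for 0 of the 49 genes and for 0.0% of all genes (limma moderated F-test, Benjamini-Hochberg adjusted p under 0.05). At an unadjusted p under 0.05 it was 0 of the 49 and 2.38% of all genes. The test rests on 3 females in batch 2 and on 8 to 15 rats in each other combination of sex and batch, which limits the interactions it can show.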

How the data were processed

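RNA-Seq expression in PL was taken from 80 rats, with 6 further samples left out because the labels mark them as removed. The authors trimmed reads with cutadapt, estimated read counts with RSEM against the Ensembl rat transcriptome, scaled them to a common upper quartile in DESeq2, kept genes with more than 1 read in at least 25% of libraries and at least 100 reads in all, and deposited log2 values of the scaled counts after adding 1. The processing notes name build Rnor_6.0. Undoing the log gave whole numbers (100.0% of values within 0.1%), but these are rounded after scaling, so no count test was run. The strand setting and the tool versions are not given in the sources used here.

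Because scaled counts were rounded, each library skips or repeats certain whole numbers, and the factor that best explains these, clear for 77 of 80 libraries, gave its depth. Differences were tested with limma 3.58.1 in R 4.3.3 (lmFit, eBayes with a variance trend) on all 17250 genes, with sex and batch in the model, and p-values were adjusted by Benjamini-Hochberg over all genes at 0.05. Each rat is a separate animal, and close relatives were not modelled. Steps were tested on simulated data. Correlations, the 2-group model and promoter searches used pandas 2.3.3, scipy 1.17.1 and numpy 2.4.6 under Python 3.11.15.

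Names come only from the study's lists of IL eQTL genes (29 members) and of genes whose eQTL was seen in 1 region alone (21, 1 in both), of which parts were used here. The genes, lists and tests were chosen with earlier results of these data known. Fully described genes follow a rule: the 12 smallest p over batches, the 5 most positive and 5 most negative differences between the sides, the highest and lowest 5 by mean, the 6 with the largest residual SD, and the most correlated pairs. RSEM divides reads shared by close copies or overlapping genes by estimate.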

Additional observations from a re-analysis of the deposited data

How the results depend on the processing

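No paired analysis was possible because each rat gave 1 library and neither sex nor batch varies within a rat. The count of 0 genes for sex held under all alternatives run, within each batch and with 20 principal components included, as did the 0 for the interaction, and the count over batches stayed between 25 and 31. Between the sides, 13 of the 49 genes passed in males alone (7 higher and 6 lower, against 41% of all genes) and 14 in females alone (5 higher, against 35.2%), each with fewer rats, and 13 of the 26 genes called in both sexes together were among them in either case. Batch 6 against 2 alone gave 15 (6 higher). Batch 4 against 3 alone gave 26, with 19 of the first 26 among them. With 5 cell type markers as covariates, added after the data were seen, 17 passed, 8 of them lower. With 5.8S ribosomal RNA as a covariate, also added afterwards, 0 passed in all, 0 higher and 0 lower, and 7 genes changed sign: *Cpsf6* to -0.22, *Hnrnph1* to -0.16, *Dhx36* to -0.12, *Rbms3* to -0.10, *Taf2* to -0.032, *Ddx42* to -0.0158 and *Med25* to 0.0788, at limma adjusted p of 0.271, 0.299, 0.365, 0.873, 0.787, 0.930 and 0.672. The cause was not tested. *Hnrnph1* also changed sign in batch 6 against 2 alone, at -0.0004 (limma, adjusted p = 0.997). The looser 2-group model was called for 2 genes. The other scaling, filter, pseudocount and depth alternatives left between 22 and 26 of the 26 calls in place, the 2 genes with a mean under 5 being absent under the filter. Genes with a mean under 5 rest on few reads, and their folds are the least certain.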
